A study of Homo sapiens with 24 samples.

Results

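Interferon-stimulated genes are the genes that cells switch on when interferon reaches them, and 43 of them were followed here through 6 liver cancer lines. The 43 are a named list of such genes and of their transcription factors, and each was found by its symbol among the 23284 rows of the deposited table. The list was drawn up by symbol, with earlier results of these data known. The libraries were made from polyadenylated RNA of the lines labelled HLE, SK-HEP1, Huh1, Huh7, HepG2 and Hep3b, all labelled hepatocellular carcinoma (HCC), of genotype wt and grown in DMEM with serum.

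Each line gave 4 libraries. These were cells with a control siRNA (siCTL), siCTL cells given TGF-beta at 2 ng/ml for 24 hours, cells with an siRNA against SFPQ (siSFPQ), and siSFPQ cells given the same TGF-beta. SFPQ is an RNA- and DNA-binding protein of nuclear bodies called paraspeckles, and the series title concerns SFPQ condensates that hold Smad4, a mediator of TGF-beta signalling. No group received interferon. The labels name 1 siRNA condition for SFPQ and no second sequence, so off-target effects of the siRNA and loss of SFPQ cannot be told apart. Each group holds 6 libraries, 1 per line, so the 6 lines serve as replicates and pair the groups. Separate cultures for the 4 libraries of a line are not named in the labels, and within a line there is no replicate.

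Type I interferons bind the receptor IFNAR1/IFNAR2, and the kinases JAK1 and TYK2 then phosphorylate STAT proteins. STAT2 and IRF9 are part of the complex ISGF3, which binds the interferon-stimulated response element (ISRE) in promoters and raises transcription of antiviral genes. Many of these genes also have a basal level without added interferon, and in liver cells they are known for limiting hepatitis viruses.

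The element can be read in the promoters of the listed genes. RefSeq promoter windows on GRCh38.p14, from 250 bases before to 50 bases after a start, were at hand for 36 of the 43 genes. OAS2, OASL, MX2, IFIT2, IFITM2, IRF7 and USP18 had none. The ISRE core was searched as GAAANNGAAA on both strands, which reads TTTCNNTTTC on the opposite strand. It was present in a window of 25 of the 36 genes (69.4%), against 1195 of 27305 genes with a window (4.38%). Counted by window, 29 of 48 windows of the listed genes held it (60.4%), against 3.57% of all windows. The shorter interferon-gamma element (GAS), searched as TTCNNNGAA, which can overlap an ISRE match, was in windows of 11 of the 36 genes (30.6%) and of 9.38% of all genes. Below are the stretches before the start for 5 genes whose levels are described later, with each ISRE match in capitals. All lie on the + strand of GRCh38.p14, and the printed stretch ends before the first annotated exon base.
ISG15: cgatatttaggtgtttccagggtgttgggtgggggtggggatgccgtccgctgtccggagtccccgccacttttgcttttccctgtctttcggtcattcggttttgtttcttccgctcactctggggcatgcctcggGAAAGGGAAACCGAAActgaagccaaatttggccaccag
OAS3: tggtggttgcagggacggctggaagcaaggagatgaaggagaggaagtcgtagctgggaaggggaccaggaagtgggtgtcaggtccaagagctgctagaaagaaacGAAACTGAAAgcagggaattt
IFIT1: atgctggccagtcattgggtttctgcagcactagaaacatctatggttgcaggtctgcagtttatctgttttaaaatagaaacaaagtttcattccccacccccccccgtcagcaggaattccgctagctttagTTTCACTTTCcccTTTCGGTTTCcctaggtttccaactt
IFIT3: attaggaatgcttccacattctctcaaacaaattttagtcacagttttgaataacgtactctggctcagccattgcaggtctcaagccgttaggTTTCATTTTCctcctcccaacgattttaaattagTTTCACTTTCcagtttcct
HERC5: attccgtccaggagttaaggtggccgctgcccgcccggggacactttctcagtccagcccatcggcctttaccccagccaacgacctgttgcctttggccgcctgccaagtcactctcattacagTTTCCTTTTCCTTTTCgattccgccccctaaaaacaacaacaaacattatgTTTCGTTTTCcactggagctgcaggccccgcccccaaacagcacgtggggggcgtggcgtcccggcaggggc
The ISG15 stretch (chr1:1013247-1013422) holds a pair of overlapping matches that begin 113 and 107 bases before the start. In OAS3 (chr12:112938224-112938351) 1 match in the printed stretch begins 143 bases before the start. The OAS3 window held 2 matches, and the other lies past the end of the stretch. The matches of IFIT1 (chr10:89392373-89392545) begin 116 and 103 bases before the start and read on the opposite strand, as do those of IFIT3 (chr10:89327747-89327893) at 156 and 122 bases. HERC5 (chr4:88456869-88457116) has 3, at 125, 119 and 74 bases. A match describes these letters and is not a measured binding site. The windows of OAS1, IFI35, IRF1, IRF9, STAT2, DDX58, UBE2L6, TRIM25, HERC6, XAF1 and CMPK2 held no match to these letters. The search used the newer build only for sequence, and no position was carried over to hg19, the build of the deposited values.

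Values are FPKM, fragments per kilobase of transcript divided by a library's mapped fragments. The number of fragments behind them is not given. From the steps between low values, the shallowest library (siSFPQ with TGF-beta in Huh7) had 0.355 times and the deepest 1.74 times the depth of the median library. In the libraries labelled Hep3b the hepatocyte genes ALB, APOB, TTR, FGB and HNF4A were under 1 FPKM in all 4, and 9 hepatocyte markers summed to 12.5 to 23.4 FPKM. HLE (25.3 to 110 FPKM) and SK-HEP1 (18.2 to 22.2 FPKM) were also low, against 706 to 1176 FPKM in Huh1, 8482 to 12431 FPKM in HepG2 and 13125 to 18970 FPKM in Huh7. The libraries labelled Hep3b held AFP at 7.89 to 13.3 FPKM, whereas Hep3B is known as a hepatocyte-like line that produces AFP. The identity of these libraries was not tested. Called listed genes and medians over the listed genes are given with and without them. The 6 endothelial markers were under 1 FPKM in every library. The 7 stellate and fibroblast markers summed to 104 to 182 FPKM in Hep3b, where 6 of them reached 1 FPKM, and to 139 to 319 FPKM in SK-HEP1. The sums were 63.4 to 85.9 FPKM in Huh1, 27.1 to 201 in Huh7, 24.9 to 46.1 in HepG2 and 23.8 to 61.7 in HLE. Of 10 immune markers 5 reached 1 FPKM in a library: CD68 at 7.03 to 80.5 FPKM, LYZ at 1.18 to 743, CD14 up to 9.77, FCER1G up to 6.39 and CD3D up to 3.97. PTPRC, CD3E, MS4A1 and NKG7 stayed under 1 FPKM throughout.

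SFPQ, the target, was at 90.4, 176 and 247 FPKM in siCTL cells (lowest, median and highest of 6 lines, the order used throughout) and at 23.5, 38.5 and 51.4 FPKM in siSFPQ cells. With TGF-beta it was at 84.7, 168 and 248 FPKM in siCTL cells and at 26.5, 37.7 and 54.6 FPKM in siSFPQ cells. The groups did not overlap. In limma fits with the line as a block, SFPQ fell by 2.1 on the log2 scale (SE 0.26, adjusted p = 0.00286) without and by 1.97 (SE 0.25, adjusted p = 0.00241) with TGF-beta, in 6 of 6 lines each. Changes are differences of log2(FPKM + 1) throughout, which understates the change of genes near or below 1 FPKM. Adjusted p values run over all genes tested, and a call is an adjusted p under 0.05. In bulk RNA of a line, fewer cells that express a gene and less RNA per cell cannot be told apart.

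Of the 43 genes, 40 reached 1 FPKM in at least 6 of the 24 libraries. IFI44L and CMPK2, a mitochondrial nucleotide kinase, were under 1 FPKM in all 24, and XAF1, a pro-apoptotic factor, reached 1 FPKM in 4, all of them HepG2. Levels differed more between lines than between groups, as the heat map of all 43 genes shows. The line accounted for a median of 89.8% of the variance of log2(FPKM + 1) over the listed genes, beside 87.6% over all genes at this level. For 18 of the listed genes, 1 line had all 4 of its libraries above the other 20. The share of all genes with such a line was not computed. This count and the counts of such genes by line below therefore show nothing particular to the listed genes.

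**Figure D1:**
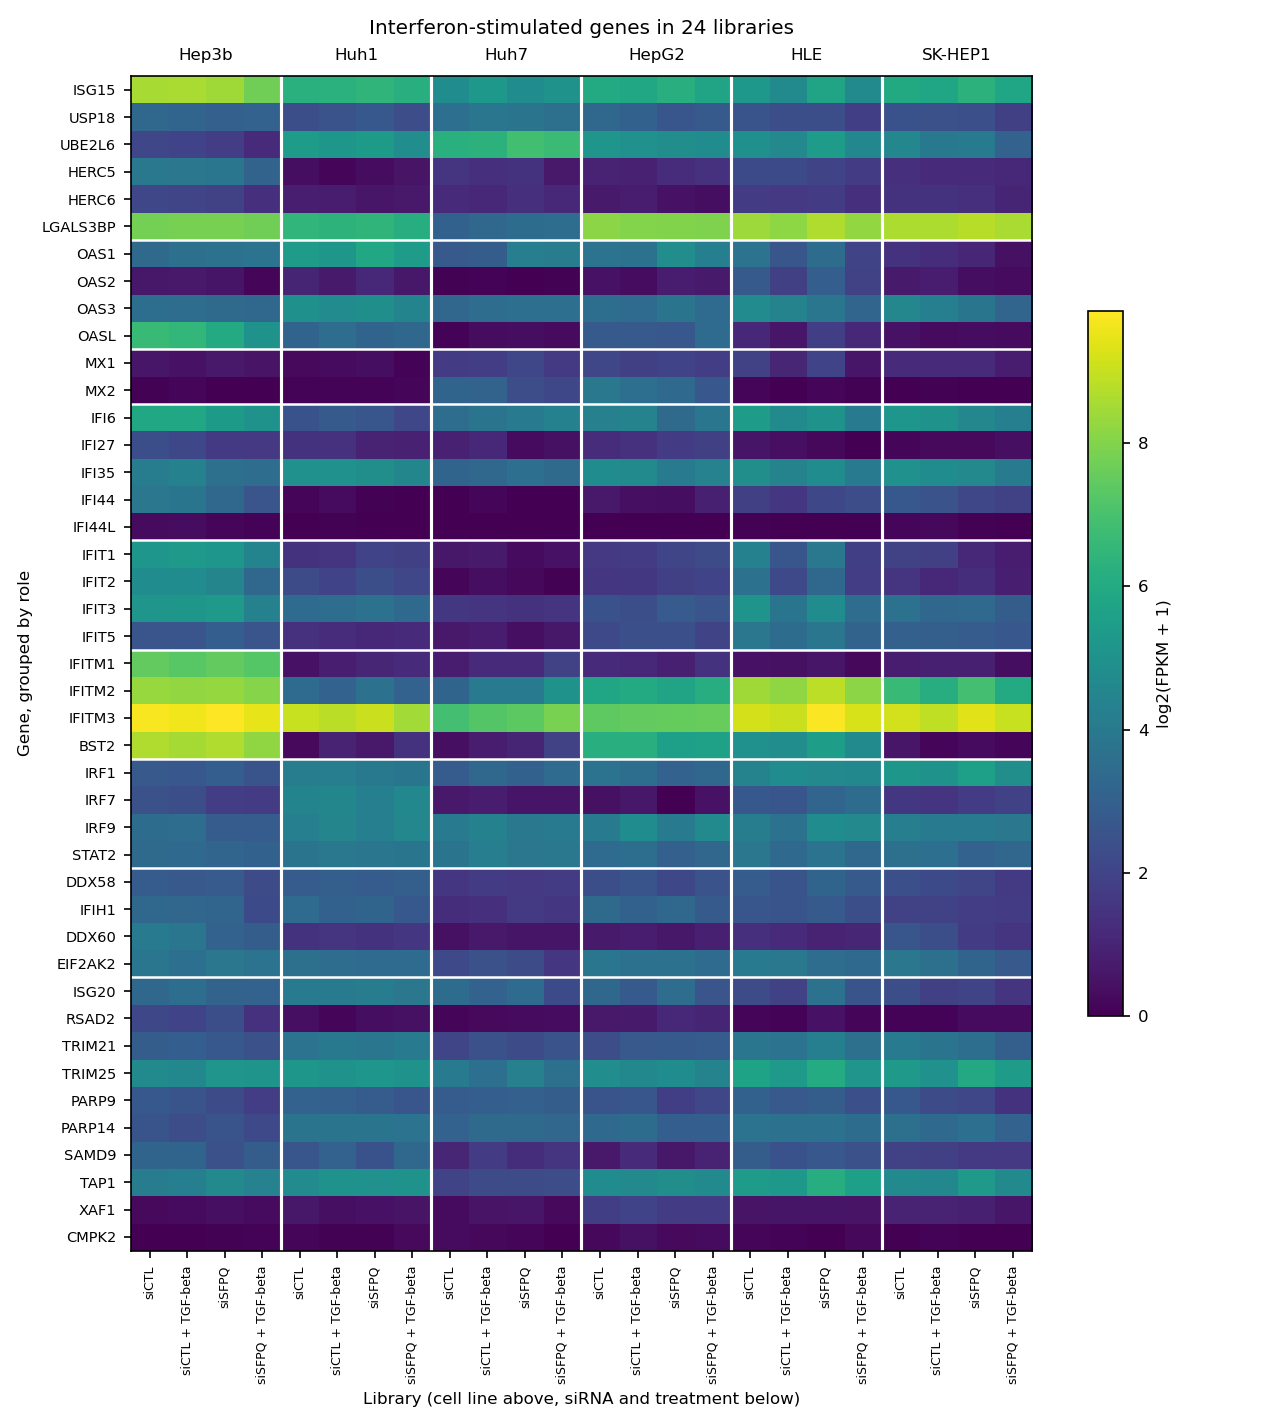
Heat map of log2(FPKM + 1) for the 43 interferon-stimulated genes (vertical axis, ordered by role) in the 24 libraries (horizontal axis, 4 groups within each of 6 lines). Columns of 1 line resemble each other more than columns of 1 group, and IFI44L and CMPK2 stay under 1 FPKM throughout.

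The libraries labelled Hep3b carried the highest mean level for 17 of the 40 genes (42.5%), beside 19.3% of all genes. In 8 of them all 4 libraries lay above every other library: ISG15, OASL, IFIT1, IFITM1, DDX60, RSAD2, BST2 and HERC5. Huh7 was lowest for 18 of the 40 (45.0%), beside 17.5% of all genes. It was highest for 4 of the 40, STAT2, PARP9, USP18 and UBE2L6, and for the last pair its 4 libraries lay above all others. Huh1 led in this way for OAS1, IRF7, ISG20 and PARP14, HLE for OAS2 and IFIT5, HepG2 for XAF1 and SK-HEP1 for IRF1. By this definition a gene can lead in only 1 line. Members of 1 family (OAS1 in Huh1, OAS2 in HLE, OASL in Hep3b) led in different lines.

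The ISG15 system comes first among the effectors. ISG15 is a ubiquitin-like protein that is attached to other proteins and is also secreted. In siCTL cells it stood at 380 FPKM in Hep3b, 74.3 in Huh1, 64.1 in HepG2, 62.6 in SK-HEP1, 36.7 in HLE and 26.6 in Huh7. Huh1, HepG2 and SK-HEP1 lay close together, and Hep3b stood apart. UBE2L6, the conjugating enzyme of ISG15, had the reverse order at the ends: 74.5 FPKM in Huh7 and 3.31 in Hep3b, with 22.4 to 42.0 in the other 4 lines. HERC5, the ligase of ISG15, was at 0.297, 1.64 and 14.2 FPKM in siCTL cells, highest in Hep3b. The related ligase HERC6 stayed between 0.300 and 3.33 FPKM over all 24 libraries. USP18, which removes ISG15 and dampens the interferon receptor, was at 4.10, 6.87 and 11.0 FPKM. LGALS3BP, a secreted glycoprotein that binds galectin-3, was at 7.44, 252 and 398 FPKM, lowest in Huh7 and highest in SK-HEP1.

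Among the enzymes and RNA binders, the oligoadenylate synthetases make the messenger that activates RNase L. OAS1 was at 1.70, 10.9 and 42.8 FPKM in siCTL cells, lowest in SK-HEP1 and highest in Huh1. OAS3 varied least of this family, from 8.27 to 30.1 FPKM over all libraries. OASL, which has no synthetase activity, ran from 0.0548 FPKM in a Huh7 library to 100 FPKM in a Hep3b library, and OAS2 reached 1 FPKM in 6 libraries. The MX GTPases, which trap viral nucleocapsids, were low: MX1 peaked at 3.33 FPKM, and MX2 peaked at 14.2 FPKM with a median of 0.0856. The IFIT proteins bind foreign RNA. IFIT1 stood at 35.04 FPKM in Hep3b and 18.9 in HLE in siCTL cells and at 0.546 to 2.86 in the other 4 lines. IFIT2 and IFIT3 also had their highest means in Hep3b and HLE, with tops of 26.7 and 37.8 FPKM, and IFIT5, highest in HLE, reached 14.1.

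The membrane-bound factors gave the highest levels of the list. IFITM2 and IFITM3 block virus entry at endosomes, and BST2 tethers budding virus to the cell. IFITM3 was at 118, 548 and 861 FPKM in siCTL cells, IFITM2 at 8.02, 77.4 and 348 FPKM. IFITM1 was at 177 FPKM in Hep3b and at 0.399 to 1.31 FPKM in the other 5 lines. The 3 IFITM genes are related in sequence. How any reads shared between them were assigned is not given in the sources used here, so their split is uncertain. BST2 was at 413 FPKM in Hep3b, 73.0 in HepG2 and 30.9 in HLE, and under 1 FPKM in Huh1, Huh7 and SK-HEP1. With ISG15 and LGALS3BP, these were the 5 listed genes that passed 200 FPKM in a library: ISG15, IFITM2, IFITM3, BST2 and LGALS3BP.

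The regulators and sensors follow. STAT2 was at 9.52, 12.1 and 14.2 FPKM and IRF9, its partner in ISGF3, at 10.3, 16.3 and 18.0 FPKM in siCTL cells. IRF1, a factor that also answers to interferon-gamma, was at 5.82, 14.5 and 35.9 FPKM. IRF7, which amplifies interferon production, was at 0.372, 3.26 and 20.9 FPKM, highest in Huh1. Of the RNA sensors, DDX58 (RIG-I) ranged from 1.94 to 7.94 FPKM, IFIH1 (MDA5) from 1.48 to 9.91 and DDX60, a helicase placed upstream of RIG-I, from 0.347 to 16.2 over the 24 libraries. EIF2AK2 (PKR), the kinase that halts translation on double-stranded RNA, was at 3.57, 13.7 and 16.3 FPKM in siCTL cells, lowest in Huh7. Of the other effectors, TRIM25, the ubiquitin ligase of RIG-I, was at 16.1, 31.6 and 51.9 FPKM, and TRIM21, a cytosolic antibody receptor, at 3.14, 9.38 and 15.7. The exonuclease ISG20 was at 3.81, 8.84 and 16.0 FPKM and the virus restriction factor SAMD9 at 0.582, 4.02 and 7.97. RSAD2 (viperin) exceeded 1 FPKM in 6 libraries and peaked at 4.16 FPKM. PARP14, an ADP-ribosyltransferase, lay between 3.56 and 13.0 FPKM, and the transcripts IFI6, IFI27 and IFI44 peaked at 58.2, 4.20 and 13.9 FPKM. IFI35, a partner of the interferon-induced protein NMI, was at 7.99, 27.3 and 30.8 FPKM.

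**Figure D2:**
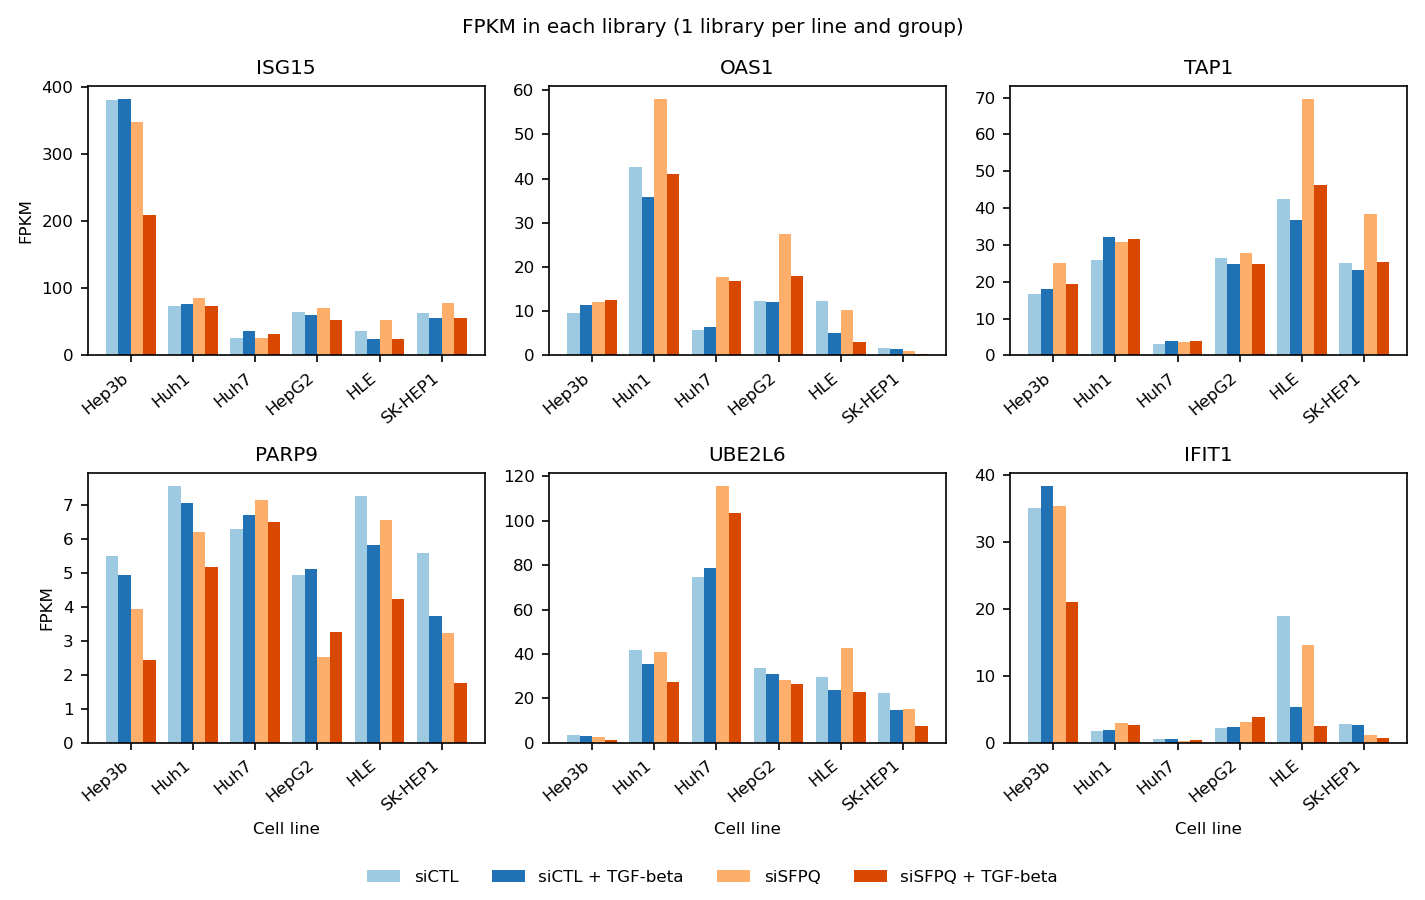
FPKM of ISG15, OAS1, TAP1, PARP9, UBE2L6 and IFIT1 (1 panel each, linear axes from 0) in 6 lines, with 1 bar per library and 1 colour per group. ISG15 and IFIT1 are highest in Hep3b, OAS1 in Huh1, TAP1 in HLE and UBE2L6 in Huh7, while PARP9 stays between 1.75 and 7.57 FPKM.

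The signalling chain above these genes was also read. Of 12 listed interferon genes and aliases, 9 had a row, and none reached 1 FPKM in any library (highest 0.713 FPKM). The receptor chains were present, IFNAR1 at 5.20 to 15.7 FPKM and IFNAR2 at 15.6 to 49.1 FPKM over the 24 libraries. The kinase TYK2 was at 14.4, 21.7 and 28.3 FPKM in siCTL cells. These levels describe RNA and say nothing of interferon protein in the medium.

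Knockdown of SFPQ without TGF-beta moved few of the listed genes past the test. Of 35 tested, 1 was called higher (6.69% of all genes were called higher) and 0 lower (15.0% of all genes). At an unadjusted p under 0.05 in limma there were 4 higher (12.2% of all genes) and 2 lower (25.1%). Of the 35, 2 were higher in 6 of 6 lines (8.61% of all genes) and 0 lower (17.5%). The median change of the 35 was -0.03, beside -0.07 over all genes tested, and the same values without Hep3b. With each library scaled to a common median ratio these medians were 0.04 and 0.00, so the sign of the listed genes' median turned. That scaling also changed the split of all calls from 804 higher and 1805 lower to 1171 and 1370.

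The gene that rose was TAP1, which carries peptides into the endoplasmic reticulum for loading onto MHC class I. It was at 3.04, 25.6 and 42.4 FPKM in siCTL and at 3.70, 29.3 and 69.7 FPKM in siSFPQ cells, higher in 6 of 6 lines, with ranges that overlap between groups. Its change was 0.40 (SE 0.10, adjusted p = 0.0252). Without Hep3b it was 0.36 with an adjusted p of 0.0642, and the call was also lost without HLE or SK-HEP1 (highest adjusted p = 0.0722). An antisense gene, PSMB8-AS1, overlaps the TAP1 model, and whether the counting used strand is not given in the sources used here, so their reads cannot be told apart. That limit holds for the other overlapping models named below. The next in the higher direction were IFITM3, at 163, 610 and 922 FPKM in siSFPQ cells, with a change of 0.26 (adjusted p = 0.0668) and higher values in 6 of 6 lines, and TRIM25 (0.26, adjusted p = 0.105). In the lower direction PARP9 (-0.33, adjusted p = 0.0935), DDX60 (-0.37, adjusted p = 0.118) and EIF2AK2 (-0.27, adjusted p = 0.144) had the smallest p values. PARP9 was at 4.95, 5.94 and 7.57 FPKM in siCTL and at 2.53, 5.07 and 7.16 FPKM in siSFPQ cells, lower in 5 of 6 lines. DDX60 was at 0.454, 1.34 and 7.64 FPKM and EIF2AK2 at 3.77, 10.2 and 13.9 FPKM in siSFPQ cells. ISG15, at 26.3, 74.7 and 348 FPKM, differed by 0.18 (SE 0.10, adjusted p = 0.215), and OAS1, at 1.11, 14.9 and 58.1 FPKM, by 0.44 (SE 0.22, adjusted p = 0.177). IFITM2 (11.7, 85.6 and 471 FPKM), BST2 (0.235, 22.5 and 413 FPKM) and LGALS3BP (10.1, 238 and 439 FPKM) had changes of 0.28, 0.11 and 0.10, none of them past the test. Neither did IFI35 (11.0, 19.8 and 28.4 FPKM, change -0.22) nor USP18 (4.14, 5.35 and 12.9 FPKM, change -0.11).

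The 4 transcription factors did not pass the test in this comparison. In siSFPQ cells IRF1 was at 6.71, 11.3 and 46.2 FPKM, IRF7 at 0, 2.37 and 17.8, IRF9 at 6.29, 15.9 and 26.5 and STAT2 at 7.02, 10.4 and 14.02. Their changes were 0.03, -0.14, -0.04 and -0.19 in that order. Outside the listed genes, TRAF3, an adaptor of interferon induction, rose by 0.74 (SE 0.10, adjusted p = 0.00374), from 3.93, 5.87 and 7.15 to 6.46, 11.3 and 13.7 FPKM, in 6 of 6 lines and under each omission of a line. Of the 13 tested genes for interferon induction 3 rose, TRAF3, the adaptor TICAM1 (0.51) and the sensor ZNFX1 (0.31), and 1 fell, the transcription factor IRF3 (-0.28). Of 15 tested receptor, kinase and feedback genes 1 rose, IFNGR1 of the interferon-gamma receptor (0.43). Of 16 tested genes for antigen presentation 2 fell, PSMB8 (-0.55) and PSMB9 (-0.48), the inducible proteasome subunits. Of 28 other interferon-stimulated genes 4 fell: TRIM34 (-0.60), PLSCR1 (-0.49), DTX3L (-0.39) and TRIM5 (-0.31). Both shares lie just under the 15.0% of all genes called lower, so they show nothing about these lists, and 6.69% of all genes were called higher. TICAM1, ZNFX1, IRF3, IFNGR1, PSMB8, PSMB9, TRIM34, PLSCR1, DTX3L and TRIM5 each lost the call without at least 1 line. PSMB9 and TRIM34 lost it without HLE alone (adjusted p = 0.0542 and 0.0524), and PLSCR1 without HLE or SK-HEP1. TRIM5 lost it without each line in turn.

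With TGF-beta present, the listed genes called after knockdown were all lower, but at a smaller share than among all genes. Of 37 listed genes tested, 3 fell (21.8% of all genes were called lower) and 0 rose (8.47% of all genes). At an unadjusted p under 0.05 in limma, 10 were lower (30.9% of all genes) and 0 higher (13.0%), and 6 were lower in 6 of 6 lines (23.4% of all genes). The median change was -0.21 beside -0.09 over all genes, and 29 of 37 were negative (78.4%, beside 62.4%). Without Hep3b the medians were -0.15 and -0.10, and with the common scaling they were -0.13 and 0.00. That scaling turned the split of all calls from 1018 higher and 2621 lower to 1581 and 1715.

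PARP9 fell furthest of the called genes. It is a protein of the PARP family that works with the ubiquitin ligase DTX3L. It was at 3.74, 5.48 and 7.06 FPKM in siCTL cells with TGF-beta and at 1.75, 3.75 and 6.52 FPKM in siSFPQ cells with TGF-beta. The value was lower in the siSFPQ library of all 6 lines although the ranges overlap, and the gap was small in Huh7, at 6.71 and 6.52 FPKM. The change was -0.48 (SE 0.12, adjusted p = 0.0167), and it passed under each omission of a line, with adjusted p from 0.0159 to 0.0439 (-0.42 with 0.0439 without Hep3b). DTX3L fell as well, by 0.58 (SE 0.12, adjusted p = 0.00931), from 5.64, 10.2 and 15.7 to 3.31, 7.10 and 11.8 FPKM. RefSeq places the starts of the pair on opposite strands of chromosome 3, 38 or 446 bases apart depending on the start used, and their models overlap, so reads of one can count for the other.

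IFI35 and USP18 fell too, with calls that were lost on leaving out any of several lines. IFI35 was at 9.17, 22.4 and 30.4 FPKM with siCTL and TGF-beta and at 9.60, 15.6 and 22.0 FPKM with siSFPQ and TGF-beta, lower in 5 of 6 lines. Its change was -0.43 (SE 0.12, adjusted p = 0.0239), and the call was lost without Hep3b (-0.35, adjusted p = 0.0612), Huh1 (adjusted p = 0.0524) or SK-HEP1 (adjusted p = 0.0646). USP18 was at 4.20, 6.01 and 13.5 FPKM and at 2.58, 4.95 and 11.3 FPKM, lower in 6 of 6 lines. Its change was -0.32 (SE 0.10, adjusted p = 0.0365), and the call held without Hep3b (adjusted p = 0.0464) but was lost without each of the other 5 lines (highest adjusted p = 0.0860). Without Huh7, the calls were HERC6, IFI35, IFI6, PARP9 and UBE2L6, and without SK-HEP1 PARP9 alone.

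Among the other listed genes, HERC6 (-0.32, adjusted p = 0.0505), STAT2 (-0.24, adjusted p = 0.0564), EIF2AK2 (-0.42, adjusted p = 0.0572) and IFI6 (-0.48, adjusted p = 0.0600) came next. STAT2 was at 9.33, 10.9 and 17.5 FPKM with siCTL and at 7.34, 8.81 and 14.4 FPKM with siSFPQ, lower in 6 of 6 lines. EIF2AK2 was at 4.44, 11.2 and 14.2 and at 1.96, 9.52 and 12.3 FPKM. STAT2 and EIF2AK2 thus missed the threshold although STAT2 moved the same way in each line. By role, the ISG15 system taken with LGALS3BP (6 genes) had a median change of -0.26 and the 4 IFIT genes of -0.28. The median was -0.31 for the 3 sensors with PKR and 0.10 for the IFITM genes with BST2. The positive values with the smallest p were TAP1 (0.10, adjusted p = 0.351), TRIM25 (0.11, adjusted p = 0.436) and IFITM3 (0.10, adjusted p = 0.543). In this comparison IRF1 differed by -0.17, IRF7 by 0.05 and IRF9 by less than 0.01.

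Of 15 tested genes for receptors, kinases and feedback, 1 fell and 3 rose with TGF-beta present (8.47% of all genes rose). Those that rose were IFNGR2 (0.49), the feedback inhibitor SOCS3 (0.43) and JAK1 (0.29). Of 13 tested genes for interferon induction, TRAF3 (0.66) and TICAM1 (0.45) rose. Of 15 genes for antigen presentation, 5 fell (21.8% of all genes) and 0 rose (8.47% of all genes): PSMB9, PSMB8, GBP1 (-0.63), PSMB10 (-0.42) and B2M (-0.17). PSMB9 fell by 0.96 (SE 0.14, adjusted p = 0.00325), from 1.56, 16.7 and 46.5 to 0.959, 9.58 and 17.8 FPKM, and PSMB8 by 0.81 (SE 0.16, adjusted p = 0.00804), each in 6 of 6 lines and under each omission. RefSeq places PSMB9 and TAP1 head to head on chromosome 6, their starts 488 or 1431 bases apart. The neighbours did not move together, since TAP1 differed by 0.10 (adjusted p = 0.351) here and had risen without TGF-beta where PSMB9 fell. Of 26 other interferon-stimulated genes 6 fell (21.8% of all genes), among them DTX3L, APOL6 (-0.44), TRIM34 (-0.54), TRIM26 (-0.36) and PLSCR1 (-0.41). That share lies near the share of all genes, so it shows nothing about this list. IFNGR2, JAK1, GBP1, PSMB10, B2M and PLSCR1 lost the call without at least 1 line, B2M without each line except SK-HEP1. PSMB10, B2M and PLSCR1 also lost it with the common scaling.

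**Figure D3:**
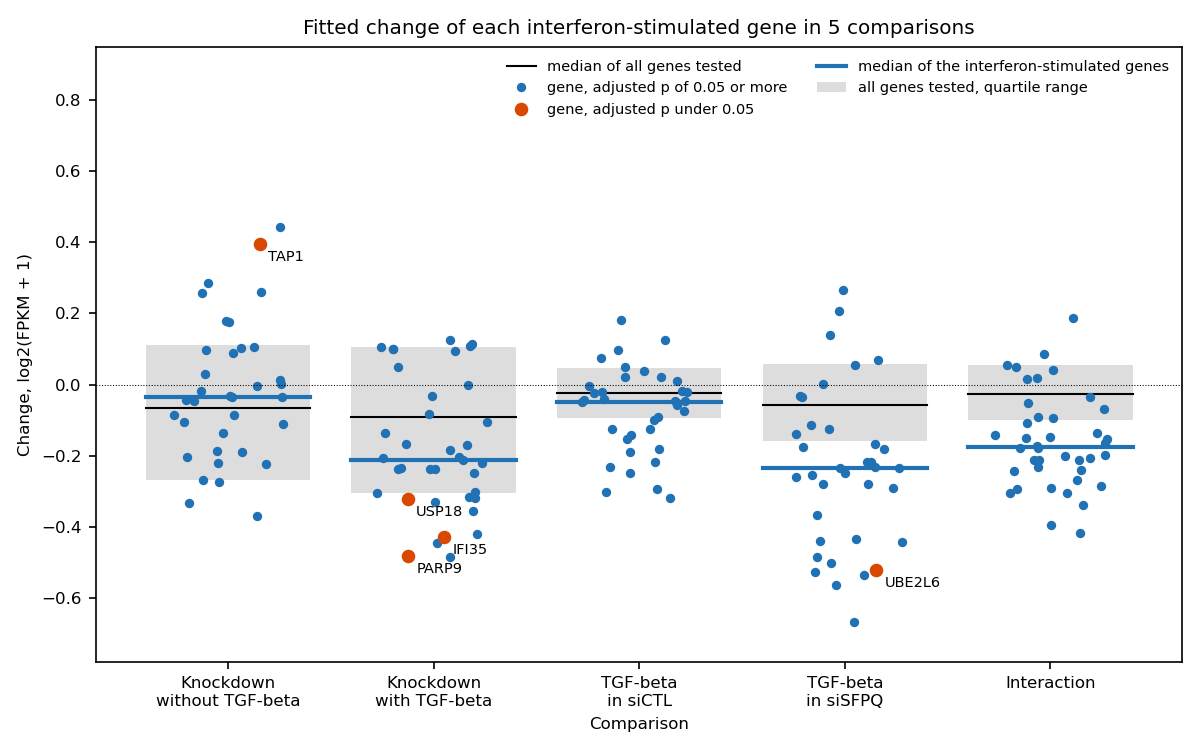
Fitted change in log2(FPKM + 1) of each tested interferon-stimulated gene (points) in 5 comparisons, with called genes marked and a grey band for the interquartile range of all genes tested. The points centre near the band for knockdown and TGF-beta alone (medians -0.03 and -0.05) and lie mostly below zero for knockdown with TGF-beta, TGF-beta in siSFPQ cells and the difference of the TGF-beta changes (-0.21, -0.24 and -0.18).

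TGF-beta in siCTL cells left the listed genes without a call. Of 36 tested, 0 were called in limma, and few genes were called at all (0.0658% of all genes higher, 0.0329% lower). At an unadjusted p under 0.05, 0 were higher (6.23% of all genes) and 3 lower (9.46%). These 3 were TRIM25, UBE2L6 and ISG20. TRIM25 and HERC5 were the 2 with lower values in 6 of 6 lines (6.09% of all genes). TRIM25 was at 11.1, 27.3 and 38.0 FPKM with TGF-beta, lower in 6 of 6 lines, with a change of -0.29 (SE 0.06, adjusted p = 0.105). UBE2L6, at 2.91, 27.3 and 78.6 FPKM with TGF-beta, differed by -0.22 (adjusted p = 0.243) and ISG20, at 2.64, 6.72 and 16.3 FPKM, by -0.25 (adjusted p = 0.304). SAMD9 (1.25, 3.59 and 8.03 FPKM with TGF-beta, change 0.18), TRIM21 (4.5, 9.51 and 14.8 FPKM, change 0.12) and IRF1 (5.37, 14.3 and 31.7 FPKM, change 0.08) were the positive ones with the smallest p values. ISG15, at 24.8, 58.0 and 383 FPKM, differed by -0.05 (SE 0.11), and by 0.05 without HLE. The median change was -0.05 beside -0.03 over all genes, and -0.06 beside -0.03 without Hep3b. Of the other transcription factors, IRF7 was at 0.544, 2.98 and 22.2 FPKM (change 0.02), IRF9 at 10.6, 17.2 and 26.4 (0.10) and STAT2 at 9.33, 10.9 and 17.5 (0.02), none past the test. The lines differed here, since IRF9 went from 16.1 to 26.4 FPKM in HepG2 but kept 72.5% in HLE. LGALS3BP (8.76, 242 and 397 FPKM), IFITM2 (7.52, 66.5 and 305), IFITM3 (147, 465 and 800), BST2 (0.117, 14.3 and 371), OAS1 (1.45, 9.03 and 35.8), TAP1 (3.78, 24.1 and 36.6) and DDX60 (0.574, 1.58 and 13.5) did not pass the test either. No gene of the receptor, induction, antigen presentation or other interferon lists was called.

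TGF-beta in siSFPQ cells lowered 1 listed gene past the test. Of 36 tested, 1 fell (3.0% of all genes were called lower) and 0 rose (2.33% of all genes). At an unadjusted p under 0.05 in limma, 16 were lower (19.4% of all genes) and 1 higher (8.92%), IRF7. The median change was -0.24 beside -0.06 over all genes, and 30 of 36 were negative (83.3%, beside 63.9%). Of the 36, 6 were lower in 6 of 6 lines (13.1% of all genes). The medians were -0.21 and -0.06 without Hep3b, -0.18 and -0.05 without HLE, and -0.19 and -0.01 with the common scaling. That scaling changed the split of all calls from 277 higher and 357 lower to 303 and 109.

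UBE2L6, the ISG15-conjugating enzyme, was the gene that fell. It was at 2.50, 34.5 and 116 FPKM in siSFPQ cells and at 1.34, 24.8 and 104 FPKM with TGF-beta, lower in 6 of 6 lines. The drop was from 15.1 to 7.62 FPKM in SK-HEP1 and from 42.5 to 23.0 FPKM in HLE, but from 28.3 to 26.5 FPKM in HepG2. Its change was -0.52 (SE 0.12, adjusted p = 0.0440). The call was lost without each line in turn (adjusted p from 0.0604 to 0.108, and -0.51 with adjusted p = 0.0725 without Hep3b), so it rests on all 6. Without Hep3b ISG20 was called in its place.

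ISG20 came next, at 3.04, 10.0 and 16.5 FPKM in siSFPQ cells and 1.85, 4.96 and 14.1 FPKM with TGF-beta, with a change of -0.67 (SE 0.16, adjusted p = 0.0514) and lower values in 6 of 6 lines. TRIM25 went from 18.8, 34.8 and 65.1 to 11.5, 32.8 and 42.5 FPKM, a change of -0.44 (SE 0.11, adjusted p = 0.0583), also with lower values in 6 of 6 lines. OAS3 (-0.37, adjusted p = 0.0596), IFIH1 (-0.44, adjusted p = 0.0639) and MX1 (-0.48, adjusted p = 0.0951) make up the rest of the 6 genes that were lower in each line. ISG15 went from 26.3, 74.7 and 348 FPKM to 25.2, 54.3 and 209 FPKM, lower in 5 of 6 lines with Huh7 the exception, and differed by -0.44 (SE 0.14, adjusted p = 0.0964). OAS1 stood at 0.365, 14.7 and 41.1 FPKM with TGF-beta, a change of -0.53 (SE 0.18, adjusted p = 0.101). The IFIT genes had changes of -0.50 (IFIT1), -0.56 (IFIT2), -0.54 (IFIT3, adjusted p = 0.0864) and -0.24 (IFIT5). Their models overlap LIPA, which limits them as above.

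On the positive side stood IRF7 (0.21, adjusted p = 0.164, at 0.387, 2.53 and 23.4 FPKM with TGF-beta), SAMD9 (0.27, adjusted p = 0.228) and IRF9 (0.14, adjusted p = 0.403). SAMD9 went from 0.564, 3.33 and 5.39 FPKM to 0.998, 3.25 and 9.0 FPKM and IRF9 to 6.37, 19.3 and 25.5 FPKM. IRF1 and STAT2 differed by -0.13 and -0.03, with IRF1 at 4.83, 11.5 and 28.4 FPKM under TGF-beta. LGALS3BP stood at 10.6, 225 and 382 FPKM (change -0.18), IFITM2 at 7.66, 66.7 and 277 (-0.18), IFITM3 at 189, 440 and 722 (-0.22), BST2 at 0.135, 14.2 and 296 (0.07) and TAP1 at 4.01, 25.2 and 46.2 (-0.26), none past the test. DDX60, at 0.469, 1.47 and 6.56 FPKM, differed by less than 0.01.

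Other genes of the system fell with TGF-beta in siSFPQ cells. Of 16 genes for antigen presentation 4 fell (3.0% of all genes): PSMB9 (-0.51), B2M (-0.37), PSMB10 (-0.36) and PSME2 (-0.25). Of 27 other interferon-stimulated genes 6 fell (3.0% of all genes): TRIM14 (-0.36), IFI30 (-0.35), PARP10 (-0.35), DTX3L (-0.33), SHISA5 (-0.27) and LAP3 (-0.26). IKBKE, a kinase of interferon induction, fell by 0.35, the 1 call among 12 genes, and JAK1 rose by 0.67 (SE 0.15, adjusted p = 0.0469), the 1 call among 15. JAK1 was at 39.9, 53.1 and 200 FPKM in siSFPQ cells and at 59.1, 110 and 198 FPKM with TGF-beta. Each of these 12 calls was lost without at least 5 of the 6 lines in turn (adjusted p up to 0.120). With the common scaling, only SHISA5 and JAK1 of the 12 kept the call. How far the counts of these lists exceed the share of all genes therefore depends on the scaling.

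The difference between the TGF-beta change in siSFPQ cells and that in siCTL cells was tested over all 24 libraries. Of 40 listed genes tested, 0 were called in either direction in limma (0.222% of all genes higher, 0.0296% lower). At an unadjusted p under 0.05, 11 were lower (7.27% of all genes) and 0 higher (5.24%). Of the 40, 7 were lower in 6 of 6 lines (4.31% of all genes): ISG15, OAS1, OAS3, TAP1, TRIM21, PARP14 and IFIH1. The median was -0.18 beside -0.03 over all genes, and 33 of 40 were negative (82.5%, beside 59.4%). The medians were -0.15 and -0.03 without Hep3b, -0.16 and -0.02 without HLE, and -0.15 and 0.00 with the common scaling. A TGF-beta change that differs with SFPQ was therefore not shown for any single listed gene. The 5 comparisons share libraries in pairs and the difference uses them all, so they do not support each other.

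ISG15 had the smallest p of the listed genes in this test. TGF-beta left 101% of its siCTL level in Hep3b but 60.2% of its siSFPQ level, from 348 to 209 FPKM. The same pair was 103% and 84.9% in Huh1, 140% and 120% in Huh7, 93.0% and 74.6% in HepG2, 67.6% and 47.4% in HLE and 90.1% and 71.1% in SK-HEP1. The share left was lower with siSFPQ in each of the 6 lines. The difference was -0.40 on the log2 scale (SE 0.07, adjusted p = 0.0807) and -0.33 (adjusted p = 0.191) without Hep3b. OAS1 (-0.34, adjusted p = 0.138), TAP1 (-0.30, adjusted p = 0.169), OAS3 (-0.24, adjusted p = 0.187), UBE2L6 (-0.30, adjusted p = 0.193) and TRIM21 (-0.29, adjusted p = 0.202) followed. TRIM21 stood at 3.86, 8.36 and 17.9 FPKM in siSFPQ cells and at 4.42, 6.61 and 15.6 FPKM with TGF-beta. The positive values with the smallest p belonged to IRF7 (0.19, adjusted p = 0.430), SAMD9 (0.09) and IRF9 (0.04). MX2, OAS2 and RSAD2 passed the level filter in this test alone and differed by -0.07, -0.11 and -0.17. Of the other fixed lists no gene was called, and PSMB9 had the smallest adjusted p (-0.48, adjusted p = 0.0854).

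The 6 lines did not respond alike to TGF-beta. With 1 library for each line and condition there is no test within a line, and the counts below are over the 40 genes with enough signal. In siCTL cells 39 of the 40 were lower with TGF-beta in HLE (97.5%, beside 54.2% of all genes) and 36 in SK-HEP1 (90.0%, beside 59.1%). The count was 26 in Hep3b (65.0%, beside 47.4%), 22 in HepG2 (55.0%, beside 51.8%), 19 in Huh1 (47.5%, beside 57.3%) and 6 in Huh7 (15.0%, beside 51.7%). In siSFPQ cells it was 37 in HLE (92.5%, beside 59.4%), 37 in SK-HEP1 (92.5%, beside 56.9%), 35 in Hep3b (87.5%, beside 53.4%), 24 in Huh1 (60.0%, beside 61.0%), 18 in Huh7 (45.0%, beside 54.9%) and 17 in HepG2 (42.5%, beside 54.9%). In Huh1, and in siCTL cells of HepG2, the share was near that of all genes, so these counts show nothing particular to the listed genes. The count differed most between the siRNAs in Huh7 and Hep3b. The median change was 0.20 in siCTL and 0.02 in siSFPQ cells of Huh7, and -0.05 and -0.34 in Hep3b. The lines with the higher hepatocyte marker sums (Huh1, Huh7 and HepG2) are those with the lower counts in siSFPQ cells, and the part of hepatocyte identity in this was not tested.

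HLE had the largest drops in siCTL cells, in genes named here after their values were seen. IFIT1 went from 18.9 to 5.29 FPKM with TGF-beta, 27.9% of its level without. IFIT2 kept 29.2% (12.1 to 3.53 FPKM), IFIT3 39.2% (33.2 to 13.0 FPKM) and OAS1 41.6% (12.3 to 5.14 FPKM). These are the 4 listed genes with a change beyond 2-fold on the log2(FPKM + 1) scale in siCTL cells, and 0.341% of all genes in HLE fell as far. In siSFPQ cells of the same line IFIT1 kept 17.2% (14.6 to 2.51 FPKM), OAS1 29.9% and ISG15 47.4% (53.1 to 25.2 FPKM), and 7 listed genes passed 2-fold, beside 1.37% of all genes. In Hep3b IFIT1 went from 35.04 to 38.3 FPKM in siCTL and from 35.4 to 21.0 FPKM in siSFPQ cells, and IFIT2 kept 42.8% and IFIT3 49.9% of their siSFPQ levels.

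**Figure D4:**
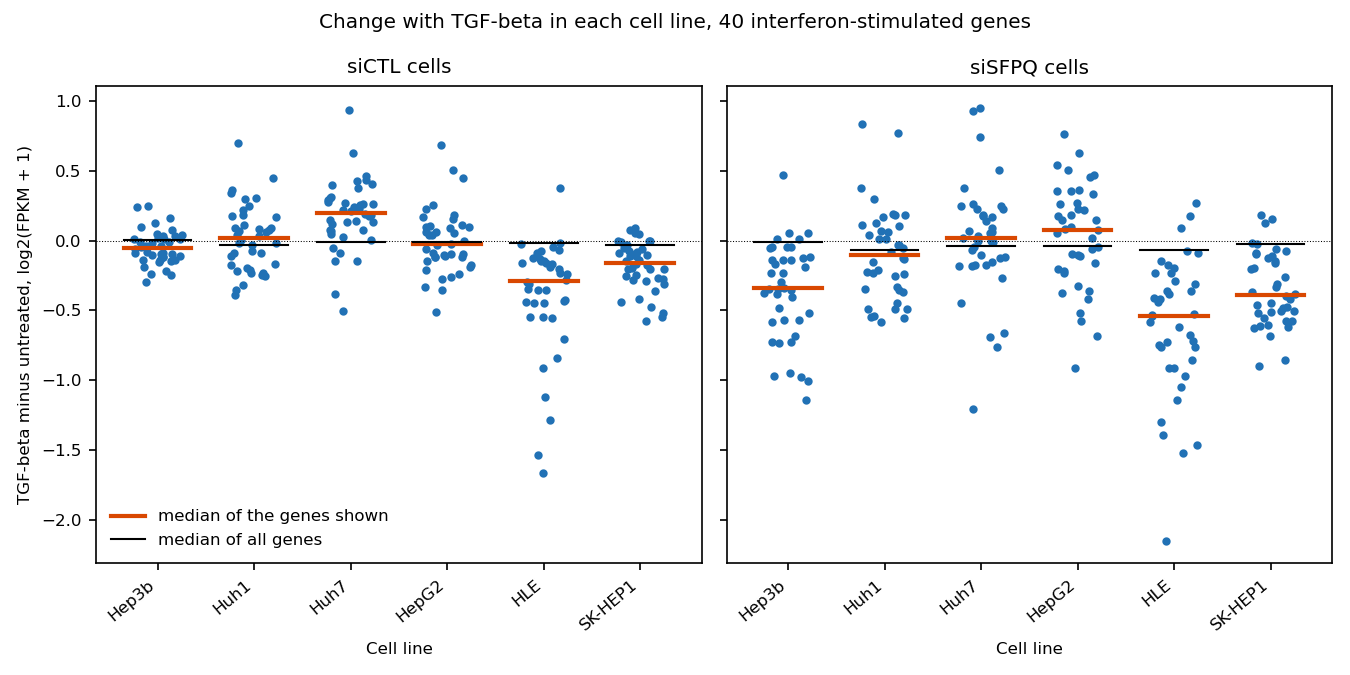
Change in log2(FPKM + 1) with TGF-beta of 40 interferon-stimulated genes (points) in each of 6 lines (horizontal axis), for siCTL and siSFPQ cells side by side, with lines at the medians. HLE and SK-HEP1 lie mostly below zero for both siRNAs, Hep3b mainly in siSFPQ cells (medians -0.05 and -0.34), and Huh7 lies above zero in siCTL cells (median 0.20).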

How the data were processed

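Polyadenylated RNA was sequenced in 24 libraries. The submitters' processing notes name hg19, TopHat2 2.1.1 and Cufflinks 2.2.1. Settings and strand handling: not given in the sources used here. Although named as raw counts, the values are FPKM, as the authors deposited them: 0.258% of positive values are whole numbers (tolerance 1e-09). Groups and lines come from the sample titles. A pair of columns matched no sample, held no values and was not used. The 1265 values between 0 and 1e-06 were set to 0, and 1627 of 23284 rows, short RNAs, were left out.

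Each comparison of 2 groups was fitted on its 12 libraries with limma 3.58.1 (statmod 1.5.0, R 4.3.3) on log2(FPKM + 1), with the line as a block, a mean-variance trend and robust shrinkage. Genes with at least 1 FPKM in at least 6 of the libraries compared were tested, with Benjamini-Hochberg adjustment over all of them. The difference of TGF-beta changes used all 24 libraries, with terms for the line and for its own siRNA and TGF-beta effects. All fits had 5 residual degrees of freedom. A count test applies only to counts, so none was run. The fit was also run on simulated data in which an added change was the same in every line. That run cannot speak for changes that differ between lines.

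The pairing of libraries by line comes from the labels. Deviations from group means correlated between 0.874 and 0.978 in 36 pairs of the same line and between -0.514 and 0.410 in 180 pairs of other lines. No 2 libraries held identical values. Depth relative to the median library was estimated from low values of 2141 genes with 1 transcript, of which 60.2% to 69.4% lay near whole multiples, with an assumed fragment of 180 bases. It was not used in the tests.

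The members and lists were chosen with earlier results of these data known. Named with values in each group were, per comparison, the 3 members with the smallest p in each direction, ISG15, the 4 transcription factors and members above 200 FPKM. From other lists, called genes and the smallest p values were named, and some genes of these lists are not reported here. Alternatives were another pseudocount (0.1), no level filter, a common scaling, no line block, all libraries in 1 fit, and each line or both Huh7 and HepG2 left out. Promoter sequences come from RefSeq (GRCh38.p14). Python 3.11.15, numpy 2.4.6, pandas 2.3.3 and matplotlib 3.10.9 were used.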

Additional observations from a re-analysis of the deposited data

Results flagged for a closer look

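For each member, the 6 lines were compared for 1 line far from the other 5 (a gap to the nearest line, as a share of the whole range, above Dixon's critical value). This picked out 16 of 184 sets of changes and 5 of 41 sets of siCTL levels, and chance alone picks about 1 in 20. Of the 16, 7 were HLE, and Hep3b, HepG2 and Huh7 had 3 each. No explanation was tested.

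With TGF-beta in siCTL cells, HLE was the line far below the others for IFIT1 (-1.66), IFIT2 (-1.53), IFIT3 (-1.29), OAS1 (-1.12) and MX1 (-0.84), all as log2 changes. The next line was at -0.10 for IFIT1 and at -0.42 for IFIT3. In siSFPQ cells HLE was again lowest for MX1 (-1.39).

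For knockdown without TGF-beta, ISG20 stood high in HLE (1.42) and HERC5 in HepG2 (0.25). For knockdown with TGF-beta, ISG15 stood low in Hep3b (-0.87), while IFI6 (0.55) and IFITM2 (0.92) stood high in Huh7, the line with the shallowest library.

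In the difference of the TGF-beta changes, IFIT2 (-1.12) and IFIH1 (-0.92) stood low in Hep3b and EIF2AK2 (-0.94) in Huh7. IFI35 (0.45) and LGALS3BP (0.073) stood high in HepG2.

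Among siCTL levels, IFITM1 (177 FPKM) and RSAD2 (3.39 FPKM) stood high and IRF9 (10.3 FPKM) low in Hep3b. A gene was compared for its level if any siCTL library reached 1 FPKM. RSAD2 did so only in Hep3b, so its flag follows from that choice and shows nothing. OAS2 stood high in HLE (5.95 FPKM) and EIF2AK2 low in Huh7 (3.57 FPKM).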

How the results depend on the processing

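Without the line block (no replicate block, no pairing) 0 listed genes were called in each comparison, against 1 higher for knockdown, 3 lower for knockdown with TGF-beta and 1 lower for TGF-beta in siSFPQ cells. Without the level filter these counts were 0, 1 and 0, and with the common scaling 2, 1 and 0. With all 24 libraries in 1 fit the last 2 counts were 6 and 2, and MX1 and TRIM25, not UBE2L6, were the 2. Without Huh7 and HepG2 together TGF-beta in siSFPQ cells lowered 2, IFITM3 and UBE2L6. Leaving out each line in turn gave 0 to 1 for knockdown, 1 to 5 for knockdown with TGF-beta and 0 to 1 for TGF-beta in siSFPQ cells. The ISG15 change with TGF-beta in siCTL cells, -0.05, ran from -0.15 (without Huh7) to 0.052 (without HLE). In siCTL cells the common scaling moved the split of all calls for TGF-beta from 8 higher and 4 lower to 11 and 3. Causes were not tested. PARP9 was the listed gene that kept its call under each alternative except the fit without the line block. Shallow libraries limit the precision of genes near 1 FPKM, and 6 lines leave 5 residual degrees of freedom in each comparison.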
